A study of Mus musculus with 9 samples.

Results

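Neuropeptide precursors are the large proteins from which neurons cut their signalling peptides, and 10 of their genes were followed through 3 layers of the mouse piriform cortex, the main cortical target of the olfactory bulb. The genes were chosen by name, after earlier results of these data had been seen, as precursors known from cortical neurons. They were Sst, Npy, Vip, Cck, Tac1, Crh, Penk, Pdyn, Cartpt and Nts. Each gene was represented by its Ensembl transcript with the highest mean count over the 9 samples. All 10 were found among the 33964 annotated genes of the files, and 9 of the 10 passed the filter on low counts (at least 10 counts in at least 3 samples). Nts did not pass and was not tested.

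The samples came from wild-type C57BL/6 mice, which the labels give as 8 weeks old, with no treatment that differed between groups. Layers lettered A, B and C were cut by laser capture from fresh-frozen sections, with 3 samples a layer, and the captured RNA was amplified before sequencing. Libraries are also named by layer and replicate number, from A1 to C3. No source used here states the numbered layer behind each letter, so the letters are kept. From these data the authors list Sst as enriched in layer III over layer I, and Cartpt in layer II over layer III. By the means here, Sst was higher in layer C than in layer A, and Cartpt higher in layer B than in layer C. Nor do the labels say that replicates came from separate animals, so p-values measure only the spread between these samples, which may be technical.

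A neuropeptide precursor enters the secretory pathway, is cut by convertases such as Pcsk1 and Pcsk2, and is stored in dense-core granules until strong activity releases it. The peptides then act on G-protein-coupled receptors, often at a distance from the release site. In the cortex, Sst, Npy and Vip mark classes of GABAergic interneurons, Cck is made by interneurons and by pyramidal neurons, and Penk and Pdyn encode opioid peptides.

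Cck and Sst transcripts were higher in layer C than in layer A, and Penk, Cck and Cartpt transcripts were higher in layer B than in layer A. All samples of layer B lay above all others for Penk and Cartpt, whereas Sst in 2 of the 3 samples of layer B stood at its level in layer A. No precursor passed edgeR's test between layers B and C with all 9 samples, and Penk passed there with DESeq2. The third library of layer B held more of all 10 precursors than the other two libraries of that layer, and the Sst difference between layers A and B turned its direction without it. Because these are bulk samples, fewer cells of a type and less RNA per cell cannot be told apart.

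Promoter sequences are shown for 3 of the precursors because Sst, Cck and Cartpt each passed a test between layers and share letters of the cyclic-AMP response element. They are the RefSeq windows of build GRCm38.p6, from 250 bases before to 50 bases after the start, written 5′ to 3′ on the gene's strand. Capitals mark the element TGACGTCA, or in Cck the half-site TGACG on the opposite strand, which reads as its reverse complement CGTCA here.
Sst (chr16:23890795-23891094, minus strand): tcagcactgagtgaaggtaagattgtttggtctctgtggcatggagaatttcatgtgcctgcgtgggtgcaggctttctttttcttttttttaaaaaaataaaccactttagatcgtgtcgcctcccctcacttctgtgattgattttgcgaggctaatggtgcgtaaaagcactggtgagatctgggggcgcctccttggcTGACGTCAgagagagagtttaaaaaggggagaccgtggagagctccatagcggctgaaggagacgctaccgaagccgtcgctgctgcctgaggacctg
Cartpt (chr13:99900634-99900933, minus strand): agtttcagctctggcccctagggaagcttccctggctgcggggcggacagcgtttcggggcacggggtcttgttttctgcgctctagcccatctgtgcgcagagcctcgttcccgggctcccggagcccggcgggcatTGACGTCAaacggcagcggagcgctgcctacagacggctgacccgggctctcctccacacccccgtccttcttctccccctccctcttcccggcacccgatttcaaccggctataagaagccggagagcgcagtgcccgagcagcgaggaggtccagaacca
Cck (chr9:121495645-121495944, minus strand): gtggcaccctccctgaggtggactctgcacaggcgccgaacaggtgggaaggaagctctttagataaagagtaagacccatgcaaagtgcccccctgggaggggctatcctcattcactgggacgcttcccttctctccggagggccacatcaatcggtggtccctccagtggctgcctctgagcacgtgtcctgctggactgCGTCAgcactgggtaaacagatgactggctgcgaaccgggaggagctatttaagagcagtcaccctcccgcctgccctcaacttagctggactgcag

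The full element TGACGTCA, searched on both strands, began 48 bases before the start in Sst and 112 bases before it in Cartpt. It was in 588 of 32851 mouse promoter windows (1.79%), and in 2 of the 9 windows of the 8 precursors that have an entry (Pdyn has 2 windows). The half-site TGACG, also searched on both strands and contained in the full element, was in 20.8% of all windows and in 6 of the 9. In Cck it lay 47 bases before the start. Tac1, Vip and Nts held the half-site too. The letters TATAAA on the gene's strand were in 8.32% of all windows and, among the 9, only in Vip. The Ensembl model of Sst starts upstream of the RefSeq start, so the element lies inside that model. A match describes letters and not a site in use. Penk and Crh are named only.

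Total counts ran from 23104306 to 76471683 per sample. Values are given as normalized CPM, which are counts relative to the library total, scaled by TMM factors that correct for differences in RNA makeup. The factors ran from 0.467 to 1.63, and mitochondrial ribosomal RNA took 55.3 to 70.2% of counts in layer A, 12.8 to 28.1% in layer B, with 20.5 to 57.1% in layer C. In these libraries 3 counts correspond to between 0.0256 and 0.254 normalized CPM. The smallest within-layer difference between libraries was between the first and second of layer B, and it was beyond sampling noise.

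Layer A libraries also held more RNA of astrocytes, microglia and vessels. All 8 astrocyte markers stood higher in layer A against both other layers, led by Gfap, an intermediate filament, Aqp4, a water channel, and Slc1a2, a glutamate transporter. Their summed level ran from 4517 to 9947 normalized CPM in layer A, from 641.2 to 1030 in layer B, with 1142 to 1526 in layer C. Vascular and meningeal markers were higher in layer A in 8 of 8 cases against layer B and 7 of 8 against layer C, with Ogn, Flt1 and Lum first. Microglial markers P2ry12, Tmem119 and Csf1r were among the 4 of 6 that were higher in layer A against each other layer, though without A1, A2 or C2 it was 1 against layer C, without A3 it was 2 and without C1 none. Their part in the differences of the precursors was not tested. Over all transcripts, 16.5% differed by the test between layers A and B and 11.3% between layers A and C.

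Between layers A and B, 3 of the 9 tested precursors passed an adjusted p of 0.05 by quasi-likelihood in edgeR, adjusted after Benjamini and Hochberg across 56416 transcripts, and all 3 were higher in layer B. Over all transcripts 16.5% passed in this comparison, and 5.83% passed with layer A lower. Every tested precursor had a higher fitted level in layer B, with a median log2 difference of 2.16, against 0.12 over all transcripts. Without B3, Sst and Npy were higher in layer A instead, by 0.28 and 1.13. Levels in layer A lay below those of layer B in all samples for 3 of the 10 precursors, against 15.1% of all transcripts. Between layers A and C, 2 of the 9 passed, both higher in layer C, against 11.3% of all transcripts and 4.35% with layer A lower. The median log2 difference of the 9 was 0.51, against 0.0067 over all transcripts, and 3 of the 10 lay below layer C in every layer A sample, against 14.5% of all transcripts. Between layers B and C none of the 9 passed edgeR's test, nor did any transcript (0%). Without adjustment, 3 of the 9 had p under 0.05, against 4.11% of all transcripts. When the 3 layers were tested together, Sst, Cck, Penk and Cartpt passed, 4 of the 9, against 14.3% of all transcripts. Between layers B and C DESeq2 passed 130 transcripts, among them Penk, 1 of the 6 precursors to which it gave an adjusted p. Layer B lay above layer C in every sample for 3 of the 10 precursors, Penk, Pdyn and Cartpt, against 3.92% of all transcripts. The number of precursors that passed between layers A and B was 1 without A1, A2 or B3, 5 without B2 and 6 without A3. Between layers A and C it was 1 without A1, A2 or C1 and 4 without B3, and among the layers together it was 1 without A1 or A2.

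**Figure D1:**
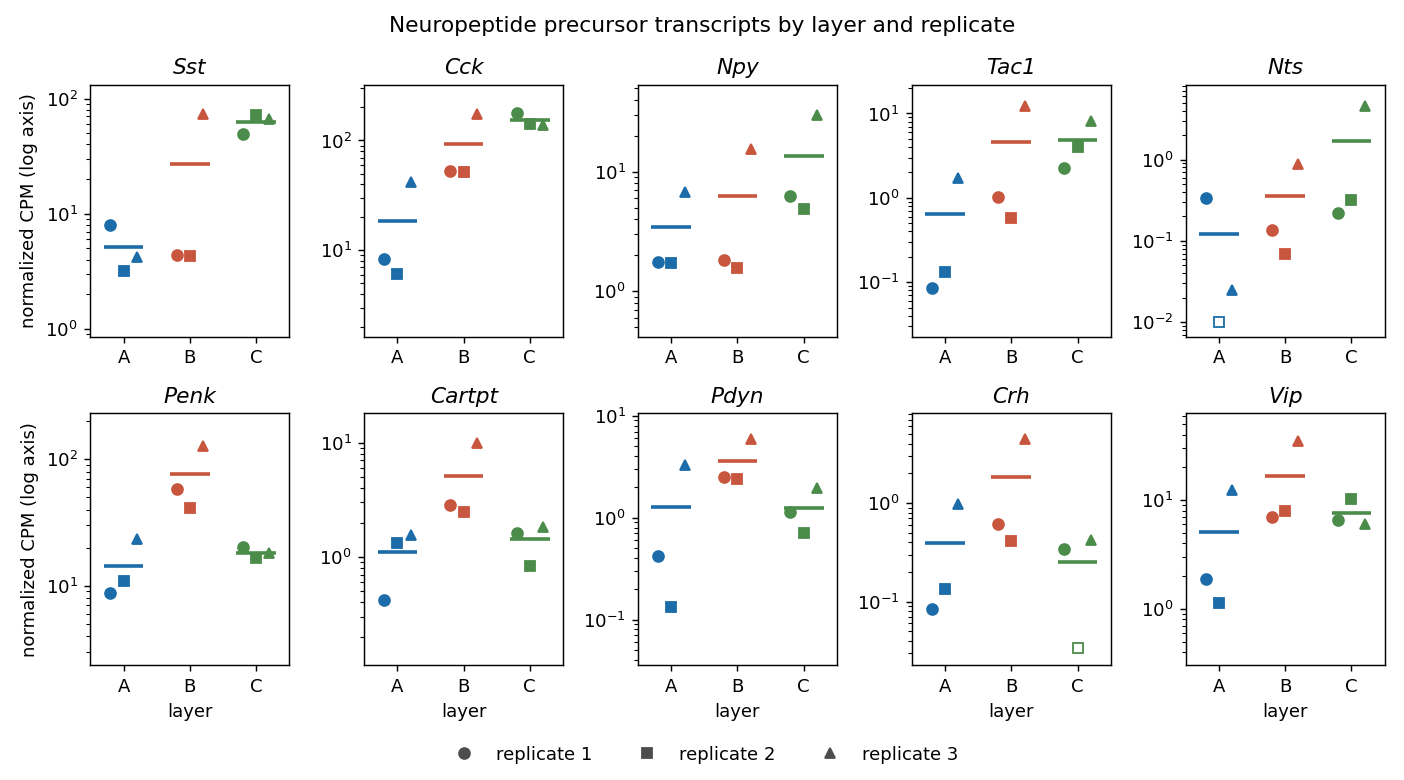
Normalized CPM of the 10 precursors on log axes, in layers A, B and C. Each point is 1 sample, with its shape giving the replicate number, lines are layer means, and open points at the foot of a panel had 0 counts. The third library of layer B lies above the other two of that layer in every panel, and Penk and Cartpt are highest in layer B.

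Sst encodes somatostatin, the inhibitory peptide of a large class of dendrite-targeting interneurons. Its transcript is 721 bases long in 2 exons on chromosome 16 (GRCm38, chr16:23889573-23890958). In layer A it was at 7.96, 3.21 and 4.19 normalized CPM. In layer B it was at 4.36, 4.27 and 72.9, and in layer C at 49.1, 71.8 and 66.7. The 3 samples of layer C lay above all of layer A, whereas layer B was split, with replicates 1 and 2 inside the range of layer A and replicate 3 above all of layer C. The mean in layer C was 62.5 ± 11.9 (SD, n = 3), against 5.12 ± 2.51 in layer A, a log2 difference of 3.62 ± 0.87 (SE, edgeR adjusted p = 0.0153).

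The Sst difference between layers A and C passed in 17 of the 20 alternatives that gave an adjusted p. It did not pass without the second library of layer A (edgeR adjusted p = 0.0747), without the third of layer A (0.0645) or without the first of layer C (0.0502). The difference between layers A and B was 2.42 ± 0.83 on the log2 scale (edgeR adjusted p = 0.0576). Without the third library of layer B it turned to 0.28 in favour of layer A (edgeR adjusted p = 0.662). In the same fit Sst was lower in layer B than in layer C, with layer B minus layer C at -3.90 on the log2 scale (edgeR adjusted p = 0.00396). With that library kept, layer C minus layer B was 1.20 ± 0.78 (edgeR adjusted p = 1.00).

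Cck encodes cholecystokinin, a peptide of basket cells and of many pyramidal neurons, and had the highest level per kilobase of the 10 in every layer. Its transcript has 691 bases in 3 exons (GRCm38, chr9:121489824-121495694). In layer A it was at 8.30, 6.15 and 41.6 normalized CPM. Layer B held 52.5, 51.3 and 175.3, and layer C held 177.9, 142.6 and 137.8. Layer A lay below both other layers in every sample, and layers B and C overlapped through the third library of layer B. The log2 difference was 2.30 ± 0.63 between layers B and A (edgeR adjusted p = 0.0199) and 3.02 ± 0.65 between layers C and A (edgeR adjusted p = 0.0093). The first did not pass without the first library of layer A (edgeR adjusted p = 0.102), without the second (0.0818), without the third of layer B (0.0803), or in a fit of only the 6 samples of those layers (0.0524). As layer A minus the other layer, the first was -3.67 without A3 and -1.41 without B3, and the second was -4.39 without A3. The second failed to pass in 1 of 21 alternatives, without the first library of layer A (0.0526). Layer C minus layer B was 0.72 ± 0.60 (edgeR adjusted p = 1.00).

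Npy encodes neuropeptide Y, made by several interneuron classes including neurogliaform cells. It was at 1.78, 1.74 and 6.78 normalized CPM in layer A, at 1.82, 1.57 and 15.5 in layer B, with 6.26, 4.85 and 29.5 in layer C. Within each layer the third library was the highest, and all layers overlapped. Layer C was higher than layer A by 1.94 ± 0.87 on the log2 scale, which did not pass (edgeR adjusted p = 0.178). It passed without the third library of layer B (edgeR adjusted p = 0.0409).

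Tac1 encodes the precursor of substance P and neurokinin A. Its levels were 0.0847, 0.134 and 1.70 normalized CPM in layer A. They were 1.01, 0.577 and 12.1 in layer B, with 2.28, 3.96 and 8.20 in layer C. The first 2 libraries of layer A rest on 1 and 2 counts, and every layer C sample lay above every layer A sample. Neither the difference of 2.61 ± 1.05 between layers B and A (edgeR adjusted p = 0.107) nor that of 2.69 ± 1.05 between layers C and A (0.118) passed. Without the third library of layer A both passed, at edgeR adjusted p = 0.0342 and 0.0439. The second also passed without the third library of layer B (edgeR adjusted p = 0.0161), and the first without the second library of layer B (0.0407).

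Nts encodes neurotensin, and it was the precursor that did not pass the count filter. The 3 libraries of layer A held 4, 0 and 1 counts, those of layer B 6, 3 and 42, and those of layer C 9, 5 and 539. A single library, the third of layer C at 4.59 normalized CPM, held most of the counts. In the other 8 libraries Nts was at or below 0.874 normalized CPM. No fold is given against layer A, where the libraries were at or near 3 counts. C3 also held the highest level of Npy. Drd2, a dopamine receptor of striatal neurons, was there at 2.73 normalized CPM (320 counts), against at most 0.698 (28 counts) in any other library. The part of such tissue in the Nts and Npy levels was not tested.

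Penk encodes proenkephalin, the source of the enkephalin opioid peptides. Its main transcript has 1449 bases in 2 exons (GRCm38, chr4:4133531-4138477). Layer A held 8.81, 11.0 and 23.3 normalized CPM, layer B 58.7, 41.1 and 128.1, and layer C 20.1, 16.6 and 18.1. All of layer B lay above all of layers A and C, which overlapped each other. The log2 difference between layers B and A was 2.39 ± 0.44 (edgeR adjusted p = 0.00217), a ratio of means of 5.29, and it passed in all 21 alternatives. Without B3 the difference was smaller, with layer A minus layer B at -1.74 on the log2 scale. Layer C minus layer B was -2.06 ± 0.44 and did not pass (edgeR adjusted p = 0.541, unadjusted p = 0.000269). It passed with DESeq2 (adjusted p = 0.0147) and with the trend of transcript length removed (edgeR adjusted p = 0.0495).

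A second Penk transcript, ENSMUST00000133567, gave a like pattern with another order within layer B. It was at 15.0, 12.8 and 7.27 normalized CPM in layer B, with the third library the lowest. Layer A held 0.931, 2.07 and 3.94 and layer C 2.97, 3.57 and 3.69, all below layer B. The edgeR adjusted p between layers A and B was 0.004. Reads of 1 gene that fit both transcripts can be split between them, so the pair is not independent.

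Cartpt encodes the precursor of CART, a peptide linked to feeding and reward. Its transcript has 827 bases in 3 exons (GRCm38, chr13:99898489-99900641). Layer A held 0.423, 1.34 and 1.55 normalized CPM, layer B 2.88, 2.49 and 9.99, and layer C 1.62, 0.829 and 1.82. Layer B lay above both other layers in every sample. Layer B exceeded layer A by 2.16 ± 0.61 on the log2 scale (edgeR adjusted p = 0.0229), and layer C minus layer B was -1.81 ± 0.58 (edgeR adjusted p = 0.794). The first did not pass without the first library of layer A (edgeR adjusted p = 0.101), the second (0.062) or the third library of layer B (0.124), where layer A minus layer B was -1.17.

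Pdyn encodes prodynorphin, the source of dynorphins. It was at 0.423, 0.134 and 3.27 normalized CPM in layer A, at 2.49, 2.40 and 5.85 in layer B, with 1.13, 0.702 and 1.93 in layer C. Layer B lay above layer C in every sample, and layer A spanned both because the third library of that layer was far above the other two. Layer B minus layer A was 1.37 ± 0.76 (edgeR adjusted p = 0.254), and it passed without that library (edgeR adjusted p = 0.00763). Layer A then rests on libraries with 5 and 2 counts.

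Crh encodes corticotropin-releasing hormone, which some cortical interneurons make. Levels were 0.0847, 0.134 and 0.973 normalized CPM in layer A, 0.607, 0.416 and 4.52 in layer B, with 0.344, 0 and 0.417 in layer C. The third library of layer B held 217 counts, the most of any sample, and several samples were at or near 3 counts. No difference passed. The largest was layer C minus layer B at -2.66 ± 1.00 (edgeR adjusted p = 0.998, unadjusted p = 0.0176).

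Vip encodes vasoactive intestinal peptide, which marks interneurons that mostly inhibit other interneurons. It was at 1.86, 1.14 and 12.4 normalized CPM in layer A, at 7.03, 7.97 and 34.8 in layer B, with 6.60, 10.1 and 5.99 in layer C. The third libraries of layers A and B were the highest, while in layer C the third was the lowest. Layer B minus layer A was 1.65 ± 0.74 (edgeR adjusted p = 0.153) and passed without the third library of layer A (0.00771).

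**Figure D2:**
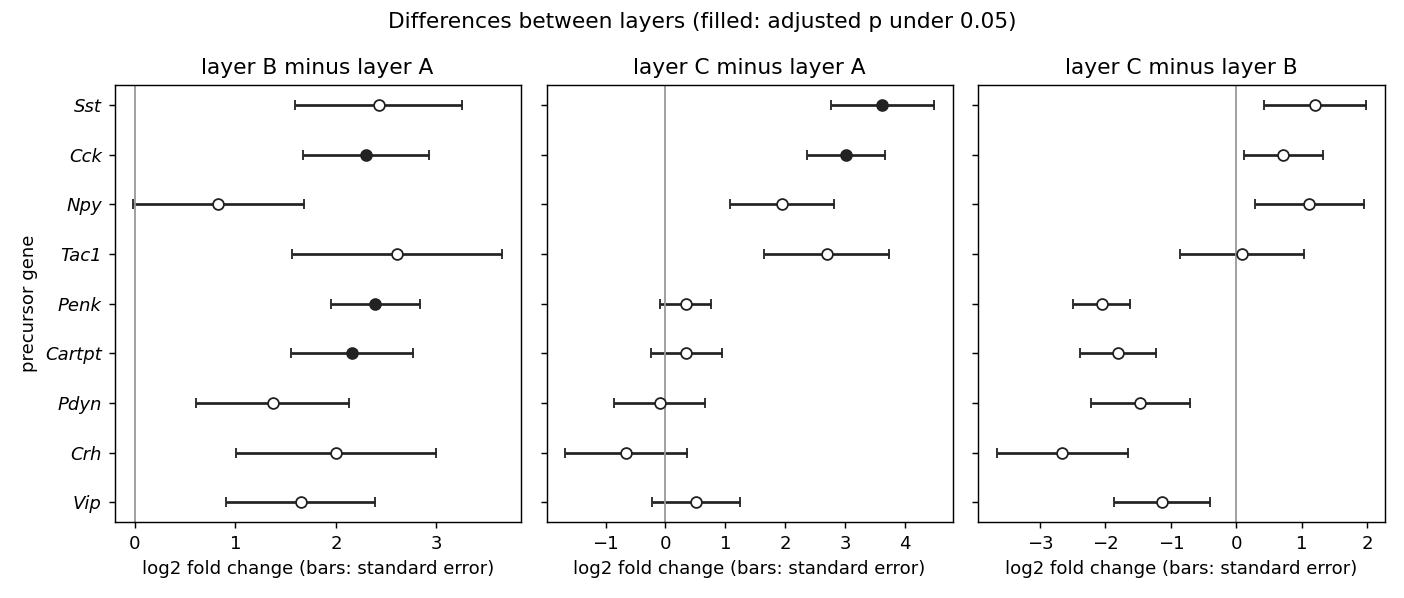
Log2 fold changes of the 9 tested precursors between layers, with bars of 1 standard error and filled points for an edgeR adjusted p under 0.05. Penk, Cartpt and Cck pass for layer B minus layer A and Sst and Cck for layer C minus layer A. For layer C minus layer B, Penk at -2.06 and Cartpt at -1.81 lie to the left and Sst at 1.20 to the right, with no filled point.

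Scaled per kilobase of transcript, Cck was first in all 3 layers, at 27.0 normalized CPM per kilobase in layer A, 134.7 in layer B, with 221.1 in layer C. In layers A and B the next in order was Penk, followed by Sst and Npy, and all neighbours in the order overlapped. In layer C the order was Cck, Sst at 86.7, Npy at 23.9 and Penk at 12.6. There the first 2 were apart from their neighbours, and Npy and Penk overlapped. Crh in layer C and Nts in layers A and B stood last.

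Ratios between transcripts of the same sample do not depend on library scaling, but ratios of transcripts of unlike length can carry the length trend given below. They were chosen after the values were seen. Penk over Cck was 1.06, 1.78 and 0.562 in layer A, 1.12, 0.802 and 0.731 in layer B, with 0.113, 0.117 and 0.131 in layer C. Layer C was apart from both other layers, which overlapped. Over 10 ratios and 30 comparisons, the two-sided exact permutation test gave p = 0.1 against each, the smallest that 3 against 3 samples allow, and an adjusted p of 0.2. No such ratio can reach 0.05.

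Penk over Sst was 13.5, 9.63 and 1.76 in layer B, with 0.41, 0.232 and 0.271 in layer C, so the 2 layers did not overlap even with the third library of layer B (exact permutation p = 0.1, adjusted 0.2). In layer A it was 1.11, 3.42 and 5.57. Cartpt over Sst was at most 0.033 in layer C and at least 0.137 in layer B. Sst over Cck, a pair of like length, was 0.0829, 0.0833 and 0.416 in layer B, with 0.276, 0.503 and 0.484 in layer C, which overlapped.

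**Figure D3:**
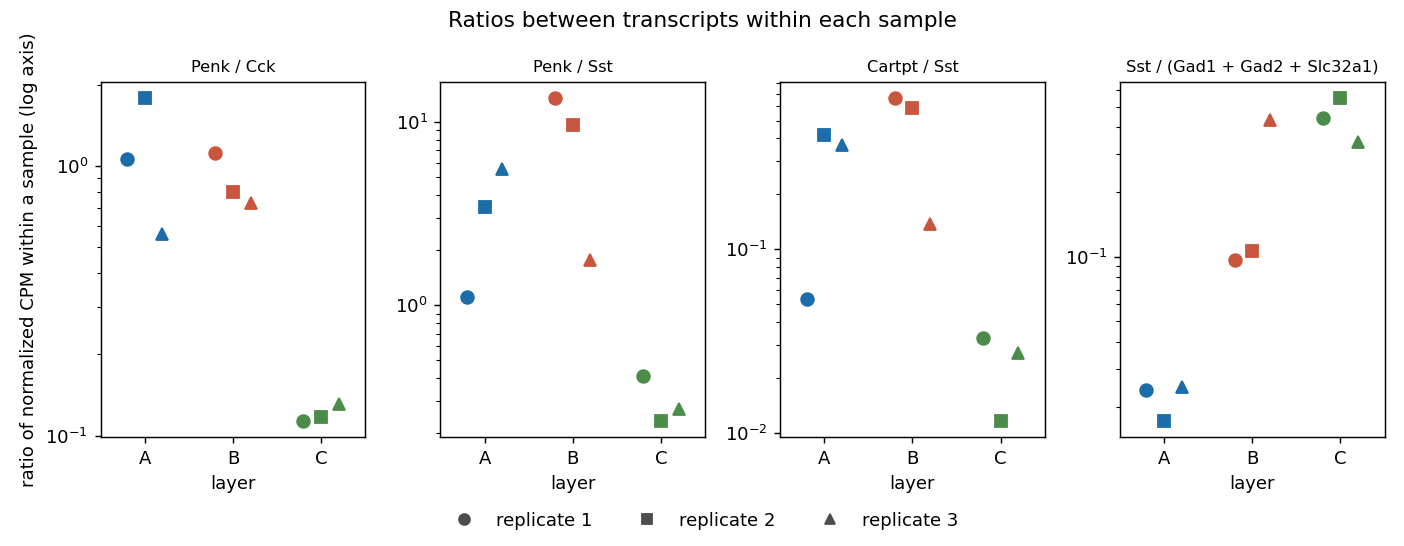
Ratios of normalized CPM within each sample on log axes, with point shapes giving the replicate. Penk over Cck is 0.113 to 0.131 in layer C and at least 0.562 elsewhere. Sst over the summed GABAergic genes is lowest in layer A, at most 0.0247. Those genes have longer transcripts than Sst, so a length trend between libraries can enter this ratio.

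None of 3 general genes of GABA neurons was higher in layer C than in layer A by the test. Gad2, a GABA-synthesizing enzyme, was lower in layer B than in layer A by 1.91 on the log2 scale (layer A minus layer B, edgeR adjusted p = 0.00941). Gad1, the other such enzyme, differed by 0.53 (edgeR adjusted p = 0.573) and Slc32a1, the vesicular GABA transporter, by 0.76 (0.307), both with layer A higher. Their summed level was 334.2, 187.8 and 169.4 normalized CPM in layer A, 45.2, 40.1 and 167.9 in layer B, with 110.4, 131.6 and 194.6 in layer C. Sst over this sum was 0.0238, 0.0171 and 0.0247 in layer A, 0.0964, 0.107 and 0.435 in layer B, with 0.444, 0.545 and 0.343 in layer C (exact permutation p = 0.1 for layer A against each). Vip over the sum was 0.156 to 0.208 in layer B, with 0.0308 to 0.0771 in layer C (exact permutation p = 0.1). Sst has 721 bases and Vip 1530, against 2797 to 5744 for the GABA genes, so a length trend between libraries can enter these ratios.

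Of 18 interneuron genes, 5 were lower and 1 was higher in layer B than in layer A, and 1 was lower and 2 were higher in layer C. Over all transcripts 16.5% passed between layers A and B and 11.3% between layers A and C. The 6 that differed between layers A and B became 2 without A1, 3 without B1 and 10 without B3. The 3 between layers A and C became 1 without A1, C1 or C2, none without A2 and 6 without B3. Sox6, a transcription factor of interneurons from the medial ganglionic eminence that other cells also use, was lower in layer B by 2.77 (layer A minus layer B, edgeR adjusted p = 0.000919). Dlx6os1, a transcript from the Dlx locus, was lower in both layers. Lhx6, a factor that marks the same interneurons, was higher in layer C by 2.32 (edgeR adjusted p = 0.0117), at 7.63, 14.6 and 10.4 normalized CPM against 4.15, 1.27 and 1.30 in layer A. Sst over Lhx6 was 1.92 to 3.23 in layer A and 4.91 to 6.43 in layer C, and 17.0 in the third library of layer B.

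All 10 precursors were more than 2 times higher in the third library of layer B than in either other library of that layer, against 15.3% of all transcripts tested. The ratio to the mean of the other two ran from 2.39 for Pdyn to 16.9 for Sst. In layer A the third library held over 2 times the others for 7 of the 10, against 7.47% of transcripts, and in layer C for 3 of the 10, against 5.82%. Shares were larger among short transcripts. For protein-coding genes of under 1000 bases they were 22.3% in layer A and 19.4% in layer C. At 1000 to 2000 bases they were 14.9% and 8.46%. The same library of layer B held all 6 oligodendrocyte markers at over 2 times the others, with a summed level of 210.5 normalized CPM against 42.1 and 45.4. Striatal markers summed to 86.9, 72.1 and 62.0 in layer B, where that library was the lowest. Most of that sum is Ppp1r1b, at 52.9, 40.3 and 34.5, and 3 of the 7 genes of the list were highest in that library.

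The size of this excess differed with transcript length. Among protein-coding genes of under 1000 bases, taking 1 transcript a gene, the median ratio of the third library of layer B to the mean of the other two was 2.98, and 65.1% of 645 genes were over 2 times higher. At 1000 to 2000 bases the median was 2.08 and the share 45.8% of 2590 genes. At 4000 bases and over the median was 1.09 and the share 8.04% of 4638 genes. Of the precursors, 5 had under 1000 bases, 4 had 1000 to 2000, and Pdyn had 2386. With the trend of length removed from each sample, over 13435 protein-coding transcripts, the ratio was 1.15 for Cck, 1.28 for Penk, 1.38 for Cartpt and 1.57 for Pdyn. It remained at 5.86 for Sst, 6.17 for Tac1, 4.19 for Crh, 2.85 for Npy and 2.40 for Vip. On that scale, whose levels are not those given above because fewer transcripts share the total, Cck was at 301.8, 290.7 and 340.1 in layer B and Penk at 298.6, 209.4 and 325.8. Sst was at 24.9, 24.1 and 143.3 in layer B, with 239.7, 435.4 and 223.8 in layer C, so that the 2 layers no longer overlapped. Sst, Npy, Cck and Tac1 passed between layers A and C, and Cck, Penk and Cartpt between layers A and B. The correction was added after the data were seen.

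**Figure D4:**
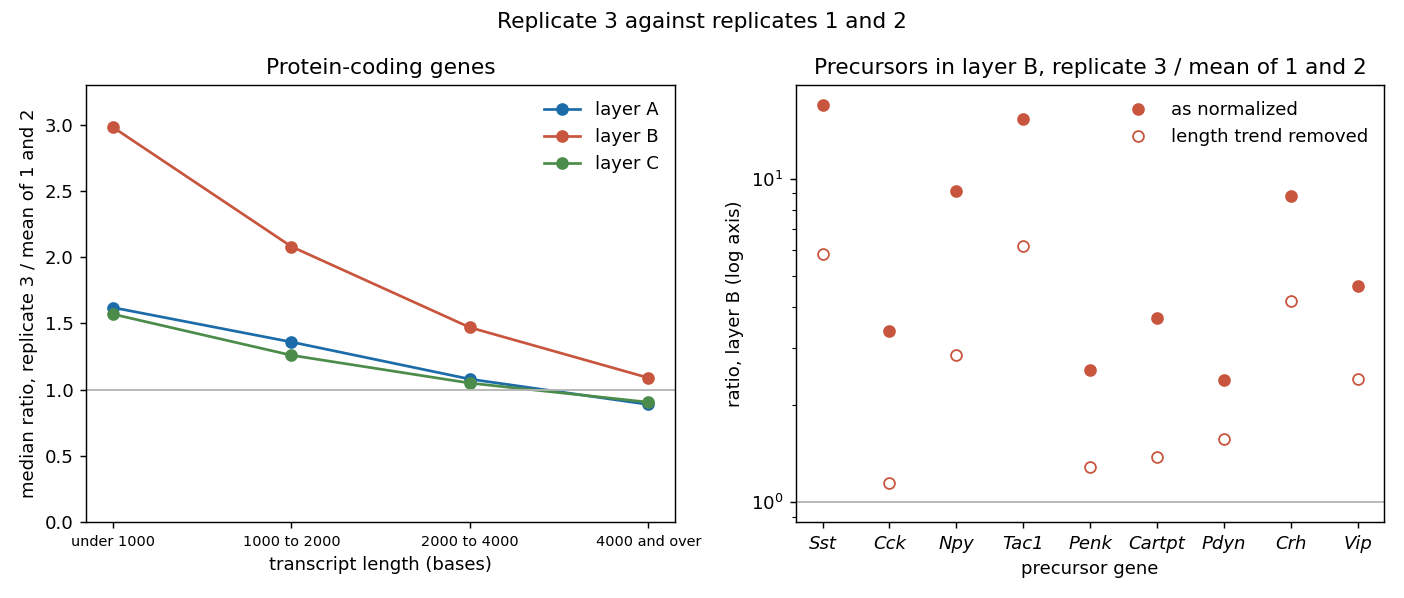
Left, the median ratio of the third library to the mean of the first and second over protein-coding genes, by transcript length in bases, for each layer. Right, the same ratio in layer B for each tested precursor, on a log axis, as normalized (filled) and with the length trend removed (open). In layer B the median falls from 2.98 to 1.09 with length, and the open points are at 1.15 for Cck and 5.86 for Sst.

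Of 16 genes that cut and store the peptides, all tested, 8 were higher and 1 lower in layer B than in layer A, with a median log2 difference of 1.18, and 16.5% of all transcripts passed in that comparison. Against layer C, 6 were higher and 1 lower, with a median of 1.17 and 11.3% of all transcripts passing, and none passed edgeR's test between layers B and C (1 had p under 0.05 before adjustment). The 9 calls against layer B became 4 without A1 and 5 without C1. The 7 against layer C became 3 without A1, 2 without A2, 1 without C1, 4 without C2 and 11 without B3. Pcsk2, the convertase that makes the final cuts of many precursors, was at 8.55, 18.9 and 26.9 normalized CPM in layer A, 93.7, 83.3 and 96.3 in layer B, with 90.2, 89.5 and 73.6 in layer C. Its layer A samples lay below all others, by 2.32 on the log2 scale against layer B (edgeR adjusted p = 0.000756) and 2.21 against layer C (0.0027). Ptprn2 and Ptprn, membrane proteins of dense-core granules, were also lower in layer A than in both, by 1.39 and 1.33 against layer B (edgeR adjusted p = 0.00819 and 0.00765). Cpe, the carboxypeptidase that trims cut peptides, was at 3231, 861.2 and 1576 normalized CPM in layer A. Layer B held 160.5, 171.7 and 1442, and layer C 469.1, 543.0 and 534.8. Its layer A samples lay above all of layer C and overlapped layer B through the third library of layer B. Layer A did not pass the test for Cpe against either other layer (edgeR adjusted p = 0.112 and 0.0953). Cpe is named after its values were seen. Scg3, a granin, was the 1 gene of the list that passed with layer A higher. It was at 194.3, 105.7 and 83.2 in layer A and at most 69.0 in layer B, higher in layer A by 1.66 (edgeR adjusted p = 0.0131).

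**Figure D5:**
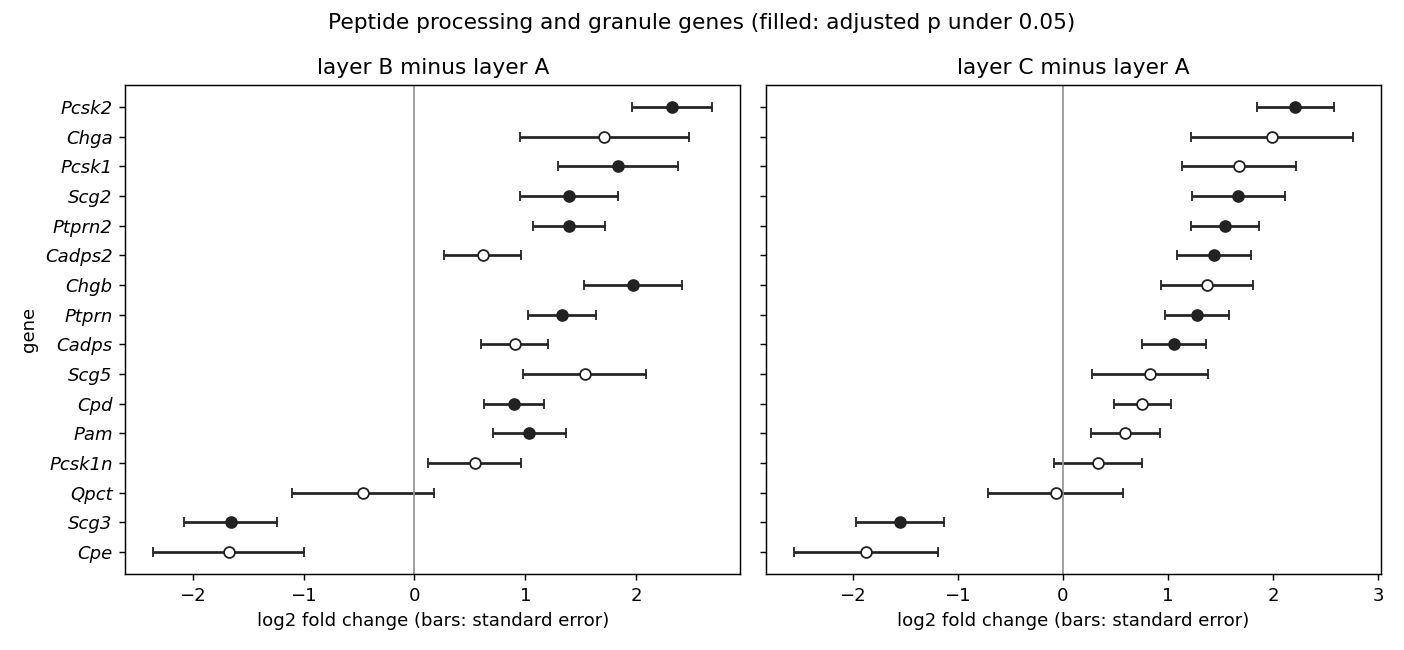
Log2 fold changes of 16 peptide-processing and granule genes, layer B minus layer A on the left and layer C minus layer A on the right, with bars of 1 standard error. Filled points have an edgeR adjusted p under 0.05. Pcsk2 is highest at 2.32 and 2.21, and Scg3 lies at the other end among filled points.

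Of 20 receptor genes for these peptides, 17 were tested. Against layer A, 3 were higher and 1 was lower in layer B, and 6 were higher and 1 was lower in layer C. The shares of all transcripts that passed were 16.5% between layers A and B and 11.3% between layers A and C. The 7 between layers A and C became 4 without A1 or A2 and 2 without C1. Tacr1, the receptor for substance P, was at or under 0.0847 normalized CPM in layer A, at 0.831, 0.67 and 0.999 in layer B, with 1.67, 1.40 and 3.94 in layer C (edgeR adjusted p = 0.00387 and 0.00185), with each library of layer A at or under 3 counts. Cckbr, the main cholecystokinin receptor of the brain, was at 2.03, 4.54 and 7.33 in layer A, 16.5, 16.0 and 19.9 in layer B, with 22.2, 13.8 and 16.5 in layer C (edgeR adjusted p = 0.00527 and 0.00938). Oprd1, the delta opioid receptor on which enkephalins act, was higher in layer C than in layer A by 2.24 (edgeR adjusted p = 0.00603) and lay at 4.09 to 5.04 in layer C against 1.48 to 1.55 in layer B. Ntsr2, a neurotensin receptor that astrocytes make, was higher in layer A, at 38.3, 38.8 and 60.0, against highest values of 12.4 in layer B and 13.5 in layer C (edgeR adjusted p = 0.00199 and 0.00888).

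Of 19 other precursor genes, 8 were tested. Vgf and Tac2 were higher in layer B than in layer A, by 1.94 and 2.05 on the log2 scale (edgeR adjusted p = 0.0188 and 0.0498). Agt, which encodes angiotensinogen and is made by astrocytes, was higher in layer A relative to layer B by 3.31 (edgeR adjusted p = 0.000861) and than in layer C by 2.87 (0.00423). Without B3, 3 of the 8 passed between layers A and C. Cort, the somatostatin-related cortistatin precursor, did not pass (edgeR adjusted p = 0.298 and 0.129). Avp, Gal, Grp, Hcrt, Nmu, Npff, Oxt, Pmch, Trh, Ucn and Ucn3 did not pass the count filter.

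Penk is abundant in the striatum, so markers of regions near the piriform cortex are given beside it. Of 6 tested striatal markers, Pde10a and Drd1 were higher in layer B than in layer A, Pde10a was also higher in layer C than in layer A, and Ppp1r1b did not pass. Their list summed to 13.6 to 44.2 normalized CPM in layer A, 62.0 to 86.9 in layer B, with 45.1 to 72.8 in layer C. The 2 calls between layers A and B became 1 without A2, A3 or C1 and none without A1, B1 or B2. Drd2, a defining marker of enkephalin neurons of the striatum, did not pass the count filter and had 2, 0 and 3 counts in the libraries of layer B. Of 5 markers of claustrum and endopiriform nucleus, Synpr was higher in layers B and C than in layer A, and Nr4a2 was higher in layer C, where the third library stood at 57.7 against 8.71 and 14.3. Lxn did not pass. The list's 2 calls between layers A and C became 1 without A2, and the 1 between layers A and B became 2 without B3 or C3. Of 8 glutamatergic genes, all tested, 3 were higher and 1 lower in layer B than in layer A, and 4 were higher and 1 lower in layer C. The 4 calls against layer B became 2 without A1, and the 5 against layer C became 1 without A1, 2 without A2, C1 or C3 and 3 without C2. Camk2a, Neurod6 and Nrn1 had the smallest p in the test of any difference. Camk2a was the 1 lower gene in both comparisons. Neurod6 passed as higher only in layer C, and Nrn1 only in layer B. The part of these tissues in the precursor levels was not tested. For comparison with the counts of these lists, 16.5% of all transcripts passed between layers A and B and 11.3% between layers A and C.

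Over the 9 samples, the gene whose log2 level was most like that of each precursor, among 11719 genes with a mean of at least 1 normalized CPM, was as follows, as a description with libraries and depth in common. Cacng2 was closest to Sst (Pearson r = 0.969), followed by Glra2 and Vxn. Rbp4 was closest to Npy (0.984), followed by Resp18 and Nell1, and Cds1 was closest to Cck (0.982), followed by Camk1g and Gnaz. Pvalb, the marker of fast-spiking interneurons, was closest to Tac1 (0.979), with Sel1l3 and Necab1 next. The transcripts of Pvalb and Tac1 have 977 and 980 bases, so a length trend between libraries can enter this likeness. In A1 and A2 Pvalb had 0 and 3 counts and Tac1 had 1 and 2. Cog7 was closest to Penk (0.98), before Rprm and Nfil3. Rprm itself was at 2.12, 1.87 and 6.71 normalized CPM in layer A, 16.2, 15.9 and 41.9 in layer B, with 8.42, 4.98 and 5.43 in layer C. Layer B was above the rest in every sample. Snx1, Orai2 and Rras2 were closest to Cartpt, Zfyve27, Map2k2 and Ist1 to Pdyn, Commd10, Pkig and Cdc16 to Crh, and Rpa2, Tecpr1 and Pank4 to Vip. Among the precursors themselves Penk and Cartpt were most alike (r = 0.936), while Sst and Penk had r = 0.164.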

How the data were processed

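RNA was measured in 9 samples, 3 of each piriform layer. The authors captured the layers by laser, amplified their RNA and sequenced both ends of libraries that do not keep strand. Bowtie was used against mm10, and the deposited values are raw counts for each Ensembl transcript, not normalized. The submitters' processing notes also name bcl2fastq 1.8.4 and HTSeq 0.5.3. Without strand, reads of antisense transcripts cannot be told apart from those of a gene, and amplified reads without molecular identifiers are not independent molecules.

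Identifiers were joined to the GENCODE gene models of GRCm38, which mm10 equals, and 82807 of 95533 (86.7%) matched. Transcripts with 10 or more counts in 3 or more samples (56416) were normalized by TMM and tested in R 4.3.3 with edgeR 4.0.16, by quasi-likelihood F-tests with all 9 samples and Benjamini-Hochberg adjustment, at a threshold of 0.05. Means are given ± SD and log2 differences ± SE. The scripts were tested on simulated counts. Alternatives were relative log expression factors, 2 other count filters, DESeq2 1.42.0, the replicate number as a block, no mitochondrial transcripts, sums by gene, fits of each pair of layers on its own 6 samples, and omission of each sample in turn. Added after the data were seen were only replicates 1 and 2, counts thinned to equal totals, and 1 protein-coding transcript a gene with and without removal of a length trend (lowess span 0.3).

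The precursors and lists were chosen with earlier results of these data known. Beside the 10 precursors, each list names up to 4 genes (3 for lists of other cell types) with the smallest p in a test of any difference among layers, plus Gad1, Gad2 and Slc32a1. Likeness is Pearson's r of log2(normalized CPM + 1). A gene of the striatal list is not reported here.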

Additional observations from a re-analysis of the deposited data

How the results depend on the processing

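The cause of each change below was not tested. Penk between layers A and B passed under all 21 alternatives, at edgeR or DESeq2 adjusted p from 8.2e-06 to 0.0169. Of 543 recomputed fold changes of single precursors, 482 kept their direction and their side of the threshold, 17 changed sign, 12 no longer passed and 32 newly passed. Leaving out 1 library, the precursors that passed numbered 1 to 6 between layers A and B, 1 to 4 between A and C, 0 to 1 between B and C and 1 to 5 for any difference among layers, against 3, 2, 0 and 4. The transcripts that passed numbered 5570 to 11337, 1369 to 9740, 0 to 17 and 4070 to 11312, against 9329, 6389, 0 and 8061.

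Without a filter on low counts, 6 precursors passed between A and B, 4 between A and C and 7 for any difference, and 10 transcripts between B and C. The 4 between A and C were Sst, Cck, Tac1 and Nts, and Nts rests mostly on 539 counts in C3. With DESeq2, 1 precursor passed between A and C and 1 between B and C, with 130 transcripts between B and C, and Sst, Npy and Vip had no adjusted p. Summed by gene, 4918, 3637, 5 and 4388 genes passed in the 4 tests. With 1 protein-coding transcript a gene these were 3655, 2778, 4 and 3260, and with the length trend removed 4000, 3173, 6 and 3639, with 4 precursors between A and C and 1 between B and C. With only replicates 1 and 2, 5, 5, 1 and 7 precursors passed, and 19 transcripts between B and C. Fits with fewer transcripts or samples give other counts by construction.

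Fold changes that turned their sign are given as first layer minus second, on the log2 scale. With only replicates 1 and 2, Sst between A and B was 0.40, Npy between A and B 0.10, Crh between A and C -0.84, Pdyn between A and C -1.75 and Vip between B and C -0.14. Leaving out 1 library, the range was -2.90 to 0.28 for Sst and -1.82 to 1.13 for Npy between A and B, -1.34 to 1.16 for Crh and -2.24 to 0.59 for Pdyn between A and C, and -3.06 to 0.16 for Npy, -0.053 to 1.48 for Vip and -2.66 to 0.54 for Tac1 between B and C.

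The replicate numbers were not taken to pair the samples, since not every pair's correlation was over 0.1. The correlation of deviations of same-numbered samples ran from -0.229 to 0.276, and not every sample correlated best with its own number. With the replicate number as a block, 6 precursors passed between A and B, 4 between A and C, 0 between B and C and 7 for any difference, and Pdyn between A and C was -0.45. Depth limits Nts, Crh, Tac1, Pdyn and Cartpt, which rest on fewer than 10 counts in at least 1 library.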

Other observations

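All 6 oligodendrocyte markers were highest in the third library of each layer, and over 2 times higher only in layers B and C. In layer A they summed to 260.2 normalized CPM in the third library, against 164.7 and 158.2 in the other two. Their summed level was 210.5 normalized CPM in the third library of layer B against 42.1 and 45.4 in the other two, and 469.8 in the third of layer C against 127.8 and 126.3. All 6 markers were over 2 times higher in that library of layer C than in the others. Of the 6, Cnp, an enzyme of myelin, exceeded its layer B level in layer A by 1.63 on the log2 scale (edgeR adjusted p = 0.0444). It was the 1 call of the list between these layers, where 16.5% of all transcripts passed. Without library B3 the list had 5, and without any 1 of A1, A2, A3, B1, B2 or C1 it had none. None passed edgeR's test between layers A and C, where none had an unadjusted p under 0.05. Mobp and Mbp, a pair of myelin protein genes, did not pass.

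Relative to the summed Gad1, Gad2 and Slc32a1 levels, Cck was at 0.0248 to 0.245 in layer A, 1.04 to 1.28 in layer B, with 0.708 to 1.61 in layer C. Penk was at 0.0264 to 0.138 in layer A, 0.763 to 1.30 in layer B, with 0.0928 to 0.182 in layer C. On this scale layers B and C did not overlap for Penk (exact permutation p = 0.1, adjusted 0.2), and layers A and B overlapped for neither gene. Cck and Penk have shorter transcripts than the GABA genes, so a length trend between libraries can enter these ratios.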
